A study of Mus musculus with 9 samples.

Results

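The microRNAs (miRNAs) described here are the 9 dominant mature arms of a pair of related gene clusters, miR-17-92 and miR-106b-25, in mouse quadriceps. They were chosen by name from the 1966 entries of a small RNA-seq count table. The miR-17-92 cluster gives 6 of them (mmu-miR-17-5p, mmu-miR-18a-5p, mmu-miR-19a-3p, mmu-miR-20a-5p, mmu-miR-19b-3p and mmu-miR-92a-3p, written below without the species prefix) and miR-106b-25 gives 3 (mmu-miR-106b-5p, mmu-miR-93-5p and mmu-miR-25-3p). The study asked how the muscleblind-like proteins MBNL1 and MBNL2, regulators of RNA splicing that also bind miRNA precursors, affect the miRNAs of skeletal muscle. It had 3 groups of 3 libraries from mice aged 90 days. Wild-type mice (WT) were C57BL/6J with Mbnl1+/+ and Mbnl2+/+. Mbnl1KO mice were C57BL/6J, carried Mbnl1{delta}E3/{delta}E3 and were Mbnl2+/+. By the labels, Mbnl2KO mice were Mbnl1+/+ and carried the strain name B6.C-Tg(CMV-cre)1Cgn/J, a line in which Cre recombinase is driven by the CMV promoter, with 1 library each of Mbnl2{delta}E2/{delta}E2, {delta}E2/{delta}E3 and {delta}E2/{delta}E4. The study's own text differs from these labels in naming a single Mbnl2 genotype ({delta}E2 on both alleles) and littermate controls, and which description holds was not settled. If the labels hold, strain and Mbnl2 deletion cannot be told apart in Mbnl2KO. The labels do not say that the WT and Mbnl1KO libraries came from separate animals, so p-values measure the spread between these libraries, which may be technical. The mRNAs of the deleted genes were not measured by this assay.

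Each cluster is transcribed as 1 long RNA from which several hairpins are cut, first by Drosha in the nucleus and then by Dicer in the cytoplasm. The released arm is loaded into an Argonaute protein and pairs with target mRNAs through its seed, here taken as bases 2 to 8. The clusters are best known for promoting proliferation and survival: the miR-17 seed family represses cell-cycle inhibitors such as Cdkn1a, and miR-92a and miR-25 share a seed with targets that include the pro-apoptotic gene Bcl2l11. Dividing cells generally express them, and blood and endothelial cells hold much miR-92a, so whole muscle can carry them from several cell types. In such bulk RNA, fewer cells of a type and less RNA per cell cannot be told apart.

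The mature sequences are shown because the 9 members fall into 4 seed groups that cut across the clusters, and the comparisons set members that share a seed side by side. They are printed 5′ to 3′ from RefSeq (GRCm38.p6), which held a mature sequence for 9 of 9 members, with the seed in capitals.
miR-17-5p: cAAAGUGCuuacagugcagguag
miR-20a-5p: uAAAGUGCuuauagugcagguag
miR-93-5p: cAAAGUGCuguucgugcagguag
miR-106b-5p: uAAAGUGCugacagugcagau
miR-18a-5p: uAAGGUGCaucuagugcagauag
miR-19a-3p: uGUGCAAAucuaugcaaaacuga
miR-19b-3p: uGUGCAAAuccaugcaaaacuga
miR-92a-3p: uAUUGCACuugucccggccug
miR-25-3p: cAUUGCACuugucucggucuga

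With positions counted from 1 at the 5′ end, miR-92a-3p and miR-25-3p differ at 3 of 21 compared bases (U1C, C14U and C18U), all outside the seed. miR-19a-3p and miR-19b-3p differ at 1 base (U11C). miR-17-5p and miR-20a-5p differ at 2 bases (C1U and C12U), and miR-17-5p and miR-93-5p at 4 (U10G, A11U, C12U and A13C). The study's methods call for matches to a precursor with no mismatch, a rule that would separate these sequences, although the table does not state that its counts were made this way. Other miRNAs of the table with the same seeds added little: miR-92b-3p, which differs from miR-92a-3p by U10C and G21C over the 21 bases compared, had 47 counts over all 9 libraries against 48323 for miR-92a-3p.

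On GRCm39 the 6 hairpins of miR-17-92 lie within 836 bases of the plus strand at chr14:115281103-115281938, inside the noncoding host gene Mir17hg (intronic in most annotated transcripts, with an exon over miR-92a-1 in 2 of the 6 that span it), in the order miR-17, miR-18a, miR-19a, miR-20a, miR-19b-1 and miR-92a-1. The 3 hairpins of miR-106b-25 lie within 498 bases of the minus strand at chr5:138163583-138164080, in introns of Mcm7, which encodes a subunit of the replicative helicase. Of the annotated Mcm7 transcripts that span each hairpin, 1 of 19 had an exon over miR-93 and 1 of 19 over miR-25. Second copies of 2 hairpins, miR-19b-2 and miR-92a-2, lie on the X chromosome at chrX:51830715-51830943 in the paralogous miR-106a-363 cluster, and they give the same mature miR-19b-3p and miR-92a-3p. Counts of these 2 members therefore cannot be divided between the loci. The other mature arms made by the X-linked cluster were at or near 0: miR-106a-5p had 14 counts, miR-20b-5p 23 and miR-363-3p 17 over all 9 libraries, and miR-18b-5p was listed at 0 in every library.

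Between 4761271 and 6277018 miRNA counts were deposited per library. The muscle miRNA miR-1a-3p held 61.4% to 73.7% of them, and the 9 members together held 0.144% to 0.223%. The labelled tissue was checked against muscle miRNAs: miR-1a-3p, miR-133a-3p and miR-206-3p were abundant in every library, miR-133b-3p (9.5 to 22.2 CPM on the scale given below) and miR-499-5p (0.68 to 17.3 CPM) were low, and miR-486a-5p was listed at 0 in all 9. The part that the counting or naming of reads shared by several precursors has in such zeros of usually abundant miRNAs was not tested, so a listed 0 is not read as absence, for the X-linked arms above as well. All 9 members were above 0 in every library. Levels below are counts per 1000000 (CPM) on library totals scaled by trimmed mean of M-values (TMM), in which a few abundant miRNAs weigh less, and are given in order of replicate. The members are 21 to 23 bases long, so no length correction was made, and levels of different members are not corrected for how well each sequence is captured in a library.

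In WT muscle miR-92a-3p was the most abundant member by level, at 1228, 1140 and 983 CPM, and held rank 35 among all miRNAs. It made up 87.5% to 91.7% of the summed level of the 6 miR-17-92 members in WT, although its hairpin is the last of the cluster. The next members by level were miR-93-5p, at 408, 450 and 525 CPM, and miR-25-3p, at 242, 198 and 219 CPM, both from miR-106b-25. These 3 levels did not overlap between members in WT. miR-20a-5p (44.2 ± 9.3 CPM, SD, n = 3) and miR-17-5p (43.7 ± 7.9) followed and overlapped each other, as did miR-106b-5p (25.5 ± 5.7) and miR-19b-3p (23.9 ± 5.1). The lowest members were miR-18a-5p, at 3.39 to 6.60 CPM, and miR-19a-3p, at 2.21 to 3.39 CPM, whose ranges meet. Both groups of knockout libraries kept miR-92a-3p, miR-93-5p and miR-25-3p as the first 3 members and miR-18a-5p and miR-19a-3p as the last 2. In Mbnl1KO miR-106b-5p (23.0 to 27.5 CPM) lay above miR-19b-3p (17.2 to 18.7 CPM) without overlap, unlike in the other groups.

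**Figure D1:**
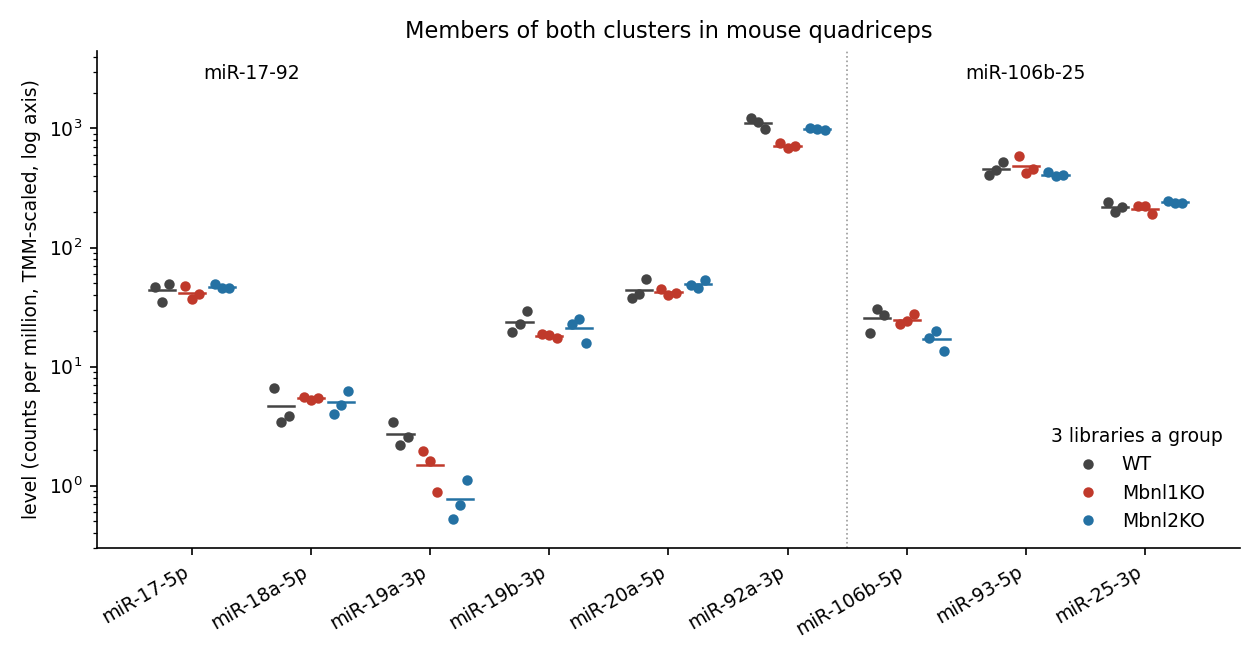
Level of each member in each of the 9 libraries (dots; vertical log axis in TMM-scaled CPM) with the group mean (line), by group; the dotted line parts miR-17-92 from miR-106b-25. The members span from miR-92a-3p near 1000 CPM to miR-19a-3p near 1 CPM, and only the red Mbnl1KO dots of miR-92a-3p, miR-19b-3p and miR-19a-3p sit wholly below the WT dots of the same member, together with the blue Mbnl2KO dots of miR-19a-3p.

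Loss of Mbnl1 was compared with WT first. miR-92a-3p was lower in Mbnl1KO by 36% and was the only 1 of the 9 members to pass the test. Its seed mate miR-25-3p and the 3 members of miR-106b-25 as a whole did not pass, and neither did the other 5 members of its own cluster. Over all miRNAs 33.1% of the 317 tested passed in this comparison, 14.2% as lower, so 1 member in 9 does not exceed the background share.

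miR-92a-3p measured 758, 680 and 719 CPM in Mbnl1KO against 1228, 1140 and 983 CPM in WT. All 3 Mbnl1KO libraries lay below all 3 WT libraries. The log2 fold change was -0.64 ± 0.14 (SE), with a 95% interval from -0.92 to -0.35 and an adjusted p of 0.000169 (quasi-likelihood F-test of edgeR, Benjamini-Hochberg correction over 317 miRNAs). Leaving out any 1 of the 6 libraries kept the call, with log2 fold changes between -0.73 and -0.57. The scale of the libraries mattered more. On raw library totals miR-92a-3p took 0.106%, 0.109% and 0.0961% of the counts in WT and 0.099%, 0.0715% and 0.0784% in Mbnl1KO, so that Mbnl1KO replicate 1 lay within the WT range. That library had the lowest miR-1a-3p share of all, 61.4%. Scaled by library totals, the median of all tested miRNAs moved from -0.01 to 0.28 and miR-92a-3p to -0.32 (adjusted p = 0.175 in edgeR, over a range of 3.48e-06 to 0.175 across 8 alternative settings), which left it 0.61 log2 units under that median against 0.63 as reported. Scaled by totals without miR-1a-3p, it was at -0.57 (adjusted p = 0.00124 in edgeR).

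**Figure D2:**
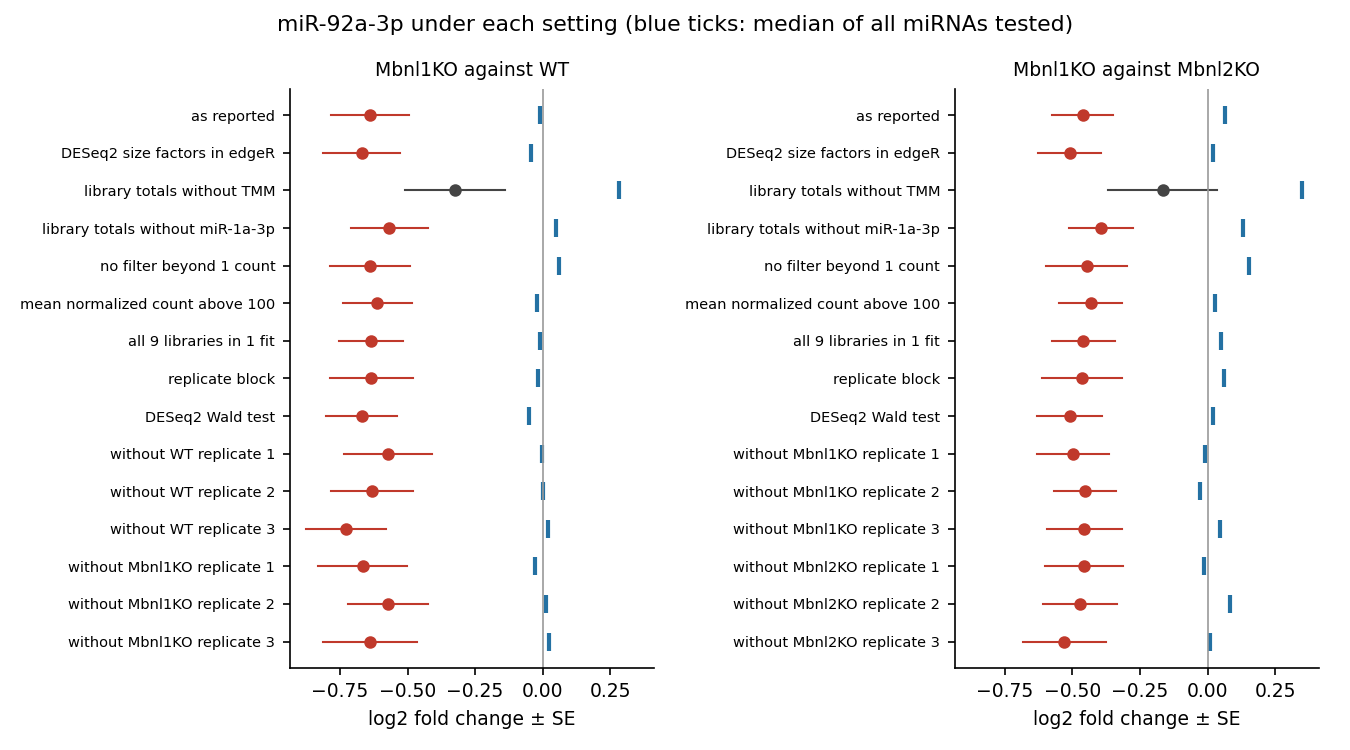
Log2 fold change of miR-92a-3p (dots, with SE; horizontal axis) under each scaling, filter, test and left-out library (rows), for Mbnl1KO against WT and Mbnl1KO against Mbnl2KO; red dots passed an adjusted p of 0.05 and the blue tick is the median of all miRNAs tested. Only library totals without TMM give a grey dot that missed the threshold, and there the blue tick moves to the right by a like amount, to 0.28 and 0.35.

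None of the remaining miR-17-92 members passed the test. The carriers of the miR-19 seed had lower levels in Mbnl1KO on the TMM scale: miR-19b-3p measured 19.4, 22.7 and 29.4 CPM in WT and 18.7, 18.6 and 17.2 CPM in Mbnl1KO, without overlap, but at -0.39 ± 0.22 (SE) it did not pass (adjusted p = 0.158 in edgeR). miR-19a-3p had 18, 13 and 12 counts in WT and 15, 9 and 6 in Mbnl1KO. On the CPM scale its groups did not overlap either (-0.86 ± 0.42, adjusted p = 0.107 in edgeR). Its mean normalized count was 16.2 in WT and 8.59 in Mbnl1KO, so it passed the minimum of 10 through WT, a difference was built into that selection, and its value is a description only. Of the other 8 members, 2 (miR-92a-3p and miR-19b-3p) did not overlap between groups, beside 44.8% of all miRNAs tested in this comparison, 22.7% as lower. These separations rest on TMM: as shares of library totals no member was without overlap, and with that scaling miR-19b-3p was at -0.096 and miR-19a-3p at -0.54. miR-17-5p, at 46.7, 34.8 and 49.6 CPM in WT and 47.7, 36.6 and 40.9 CPM in Mbnl1KO, overlapped (-0.06 ± 0.18), as did miR-20a-5p (-0.07 ± 0.18) and miR-18a-5p (0.23 ± 0.33). The median log2 fold change of the 5 members without miR-19a-3p was -0.07, against -0.01 over all 317 miRNAs, and -0.23 with it.

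No member of miR-106b-25 passed the test, and on the TMM scale their values lay near those of WT. miR-25-3p measured 223, 222 and 193 CPM in Mbnl1KO and lay inside the WT range of 198 to 242 CPM except for its lowest library. Its log2 fold change was -0.05 ± 0.15, with an interval from -0.35 to 0.25. For miR-93-5p, the main member of this cluster and a carrier of the miR-17 seed, the values were 586, 421 and 455 CPM, with replicate 1 above all WT libraries (0.08 ± 0.15, interval -0.22 to 0.37). miR-106b-5p was at -0.04 ± 0.21. The 3 intervals reach from a fall of 26.9% to a rise of 29.4% and do not show that the levels were equal. With library totals, miR-25-3p, miR-106b-5p, miR-17-5p and miR-20a-5p turned to between 0.23 and 0.26, none past the threshold, as the median of all miRNAs did to 0.28. The largest such value in this cluster was that of miR-93-5p, which moved from 0.08 to 0.39 (adjusted p = 0.0958 in edgeR), and the summed miR-106b-25 level moved to 0.33.

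**Figure D3:**
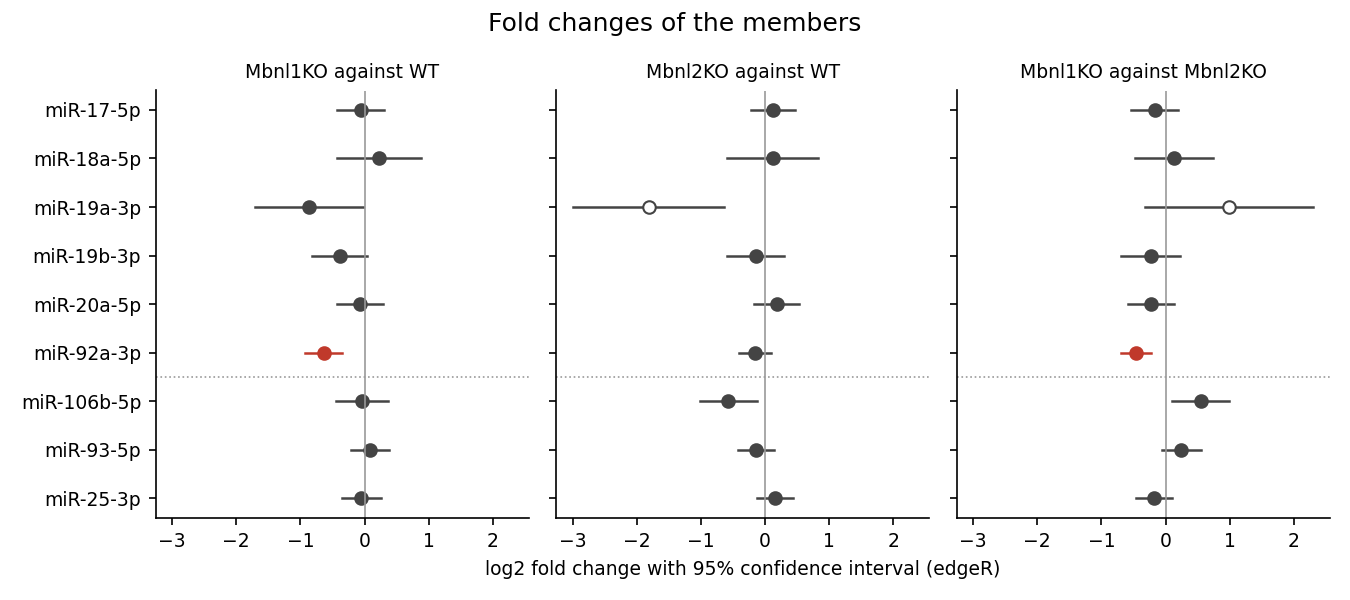
Log2 fold change of each member (dot) with its 95% interval (line) in edgeR for the 3 comparisons; red passed an adjusted p of 0.05, open dots are values of miR-19a-3p from the table without a filter on low counts, where it was below the filter. miR-92a-3p lies to the left of 0 at -0.64 and -0.46 in the comparisons that involve Mbnl1KO, and no member passed in Mbnl2KO against WT.

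Ratios of counts within a library do not depend on scaling, so they compare miR-92a-3p with the other members directly. The log2 ratio of miR-92a-3p to its seed mate miR-25-3p was 2.34, 2.52 and 2.17 in WT and 1.77, 1.61 and 1.90 in Mbnl1KO. The groups did not overlap, and the difference was -0.59 ± 0.13 (SE; two-sided exact permutation test, p = 0.10, the smallest that 3 against 3 allows). To miR-93-5p the ratio was 1.59, 1.34 and 0.90 in WT and 0.37, 0.69 and 0.66 in Mbnl1KO, a difference of -0.70 ± 0.22. Of the 8 ratios to the other members, 6 were lower in Mbnl1KO without overlap, with a median difference of -0.58. All ratios to single members were added after seeing the data, so they describe the called member and are no further support. They share the count of miR-92a-3p and are not separate results. Of its ratios to all 316 other miRNAs tested 57.6% were lower without overlap. The exceptions were the miR-19 seed: to miR-19b-3p the difference was -0.26 ± 0.28 and to miR-19a-3p 0.27 ± 0.36, both with overlap. No ratio of this design can pass 0.05. Relative to the 5 other members of its own cluster together, miR-92a-3p was at 10.8, 11 and 7.0 times their count in WT and at 6.4, 6.7 and 6.8 times in Mbnl1KO, so WT replicate 3 stands near the Mbnl1KO libraries.

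**Figure D4:**
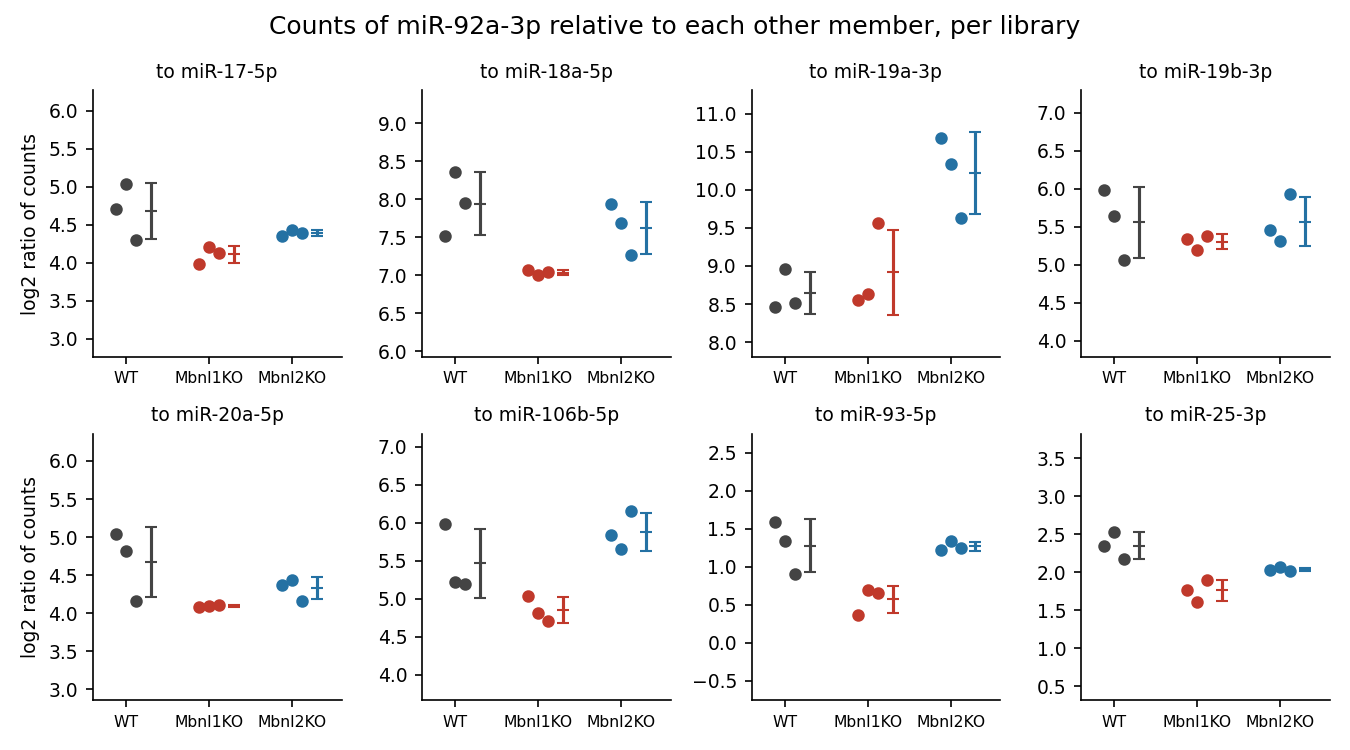
Log2 ratio of miR-92a-3p counts to those of each other member within each library (dots; mean and SD beside them), by group, all panels spanning the same number of log2 units. The red Mbnl1KO dots lie below the WT dots in 6 of 8 panels, and the blue Mbnl2KO dots lie above the WT dots for miR-19a-3p and below them for miR-25-3p.

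Summed over the clusters, the miR-17-92 members came to 1342, 1243 and 1123 CPM in WT and 876, 781 and 825 CPM in Mbnl1KO, without overlap. As a share of library totals the groups did overlap, since Mbnl1KO replicate 1 was at 0.115% and WT replicate 3 at 0.110%, and the log2 difference went from -0.58 to -0.28. This sum is mostly miR-92a-3p: without it, the other 5 members summed to 103 to 140 CPM in WT and 102 to 119 CPM in Mbnl1KO, which overlap. The sum of miR-106b-25 was 669, 678 and 771 CPM in WT and 832, 667 and 675 CPM in Mbnl1KO and overlapped too. Grouped by seed and with all seed mates of the table, miRNAs with the AUUGCAC seed of miR-92a-3p and miR-25-3p came to 1203 to 1472 CPM in WT and 903 to 982 CPM in Mbnl1KO. As shares of library totals these groups overlapped, at 0.118% to 0.129% in WT and 0.0950% to 0.128% in Mbnl1KO. miR-92a-3p held 81.7% to 85.1% of this sum in WT and 75.3% to 78.8% in Mbnl1KO. Those with the AAAGUGC seed of miR-17-5p came to 512 to 656 CPM in WT and 521 to 703 CPM in Mbnl1KO. The ranking of these seeds was the same in every group.

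Other cell types were followed by marker miRNAs beside these values. Of the 6 leukocyte markers 5 were tested, and in Mbnl1KO 3 fell (miR-223-3p at -0.87, miR-142a-5p at -0.84 and miR-146a-5p at -0.49) and 1 rose (miR-155-5p at 0.86, on the log2 scale), while miR-142a-3p was listed at 0 in all libraries. Their summed level was 411 to 441 CPM in WT and 393 to 446 CPM in Mbnl1KO. Of the red blood cell markers 0 of 2 tested passed in edgeR, at 0 with an unadjusted p under 0.05 as well (summed level 96.3 to 128 CPM in WT and 93.5 to 183 CPM in Mbnl1KO), and both arms of the endothelial miR-126a were listed at 0 in every library, so that this list measured nothing. The 3 fibroblast markers came to 1258 to 1416 CPM in WT and 1042 to 1208 CPM in Mbnl1KO, without overlap, and 1 of 3 fell (miR-199a-3p at -0.43). As shares of library totals these groups overlapped. The muscle fibre markers, of which 5 of 6 were tested, came to 790877 to 902176 CPM in WT and 550244 to 720704 CPM in Mbnl1KO, without overlap; this sum is mostly miR-1a-3p, and of the 5 tested 2 rose and 0 fell in edgeR. Of the 2 vessel wall markers 0 passed in edgeR, at 0 with an unadjusted p under 0.05 as well, and their sums of 4926 to 5641 CPM in WT and 4572 to 7244 CPM in Mbnl1KO overlapped. The part of these cells in the miR-92a-3p result was not tested.

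Mbnl2KO against WT gave no member past the threshold. Of the 9 members 8 passed the filter on low counts, and 0 of 8 were called by edgeR and 0 by DESeq2, against 5.8% of the 293 miRNAs tested. At an unadjusted p under 0.05 there was 1 of 8, miR-106b-5p, against 18.1% of all. The groups of 0 of these 8 members were without overlap, where 23.2% of all tested miRNAs were.

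miR-92a-3p measured 1001, 1000 and 965 CPM in Mbnl2KO, with replicates 1 and 2 at the low end of the WT range of 983 to 1228 CPM, replicate 3 just below it and all 3 above every Mbnl1KO library. Its log2 fold change was -0.15 ± 0.12 (SE), with an interval from -0.41 to 0.10. Its log2 ratio to miR-25-3p was 2.02, 2.06 and 2.02 in Mbnl2KO, below the WT values of 2.34, 2.52 and 2.17 without overlap (-0.31 ± 0.10 SE; two-sided exact permutation test, p = 0.10, the smallest possible). This was the 1 of 8 ratios of miR-92a-3p that was lower without overlap in Mbnl2KO, against 23.3% of its ratios to all other miRNAs tested, and 6 overlapped. These ratios were added after seeing the data. miR-106b-5p, the first hairpin of its cluster and a carrier of the miR-17 seed, measured 19.2, 30.4 and 26.8 CPM in WT and 17.4, 19.8 and 13.5 CPM in Mbnl2KO. The Mbnl2KO values are low, but replicate 2 lay above WT replicate 1. The log2 fold change was -0.57 ± 0.21, with an adjusted p of 0.126 in edgeR. The other 2 members of that cluster were at -0.15 ± 0.14 (miR-93-5p) and 0.16 ± 0.14 (miR-25-3p), and the 5 tested miR-17-92 members ran from -0.15 to 0.18.

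miR-19a-3p had the lowest counts of all members in Mbnl2KO, 3, 4 and 5, against 18, 13 and 12 in WT. As CPM these are 0.52, 0.68 and 1.1 against 3.39, 2.21 and 2.58, so the groups did not overlap. The member fell just under the filter in this comparison, with a mean normalized count of 9.15 against a minimum of 10. In the table without that filter its log2 fold change was -1.81 ± 0.60 (SE; adjusted p = 0.0867 in edgeR over 808 miRNAs). It passed the filter without Mbnl2KO replicate 3, at -2.13 (adjusted p = 0.00871 in edgeR), and without Mbnl2KO replicate 1, at -1.65 (adjusted p = 0.0887 in edgeR). In both cases it passed through its WT counts, with every Mbnl2KO count under the minimum, so a difference was built into that selection and these values are no support for a change. Its near-identical seed mate miR-19b-3p, at 22.7, 25.1 and 15.7 CPM in Mbnl2KO, overlapped with WT (-0.14 ± 0.21). Relative to the rest of its cluster within each library, miR-19a-3p was lower in Mbnl2KO by -1.60 ± 0.34 on the log2 scale without overlap, where miR-19b-3p was at -0.03 ± 0.32.

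The knockouts were then compared with each other, which tests whether they differ. In Mbnl1KO miR-92a-3p was lower than in Mbnl2KO, at -0.46 ± 0.11 (SE; interval -0.70 to -0.22, adjusted p = 0.0064 in edgeR), or by 27%. It was the 1 member of 8 tested that passed, against 26.9% of 309 miRNAs, 11.7% as lower. All 3 Mbnl1KO libraries were below all 3 Mbnl2KO libraries. The call held without any 1 of the libraries (adjusted p from 0.00938 to 0.0306 in edgeR) and was lost on library totals, where miR-92a-3p was at -0.17 (adjusted p = 0.606 in edgeR, across settings 0.000232 to 0.606) and the median of all miRNAs at 0.35. Of the cell type markers, 3 of 5 tested for leukocytes passed as lower in Mbnl1KO and 1 as higher, and 1 of 3 for fibroblasts as lower. For muscle fibres 2 of 5 tested passed as higher and 0 as lower. For red blood cells and vessel wall 0 of 2 each passed. The part of these cells in the difference between the knockouts was not tested.

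miR-106b-5p lay on the other side, at 23.0, 24.0 and 27.5 CPM in Mbnl1KO and 17.4, 19.8 and 13.5 CPM in Mbnl2KO, without overlap. At 0.54 ± 0.21 (SE) it missed the threshold (adjusted p = 0.0625 in edgeR). It passed in 3 of 8 alternative settings and without Mbnl2KO replicate 2 (adjusted p = 0.0446 in edgeR, across all settings 0.0263 to 0.254). miR-20a-5p (-0.23 ± 0.17) and miR-25-3p (-0.18 ± 0.13) were lower in Mbnl1KO without overlap but did not pass, which makes 4 of 8 members without overlap beside 47.9% of all miRNAs. These separations rest on TMM for miR-92a-3p, miR-20a-5p and miR-25-3p: as shares of library totals their groups overlapped, and with that scaling miR-20a-5p was at 0.075 and miR-25-3p at 0.11. On those shares miR-106b-5p, miR-93-5p and miR-18a-5p were the tested members higher in Mbnl1KO without overlap. How many of all miRNAs were so on that scale is not given here, and their median was at 0.35 with it. The 3 members are therefore named as a description only. Within libraries the ratio of miR-92a-3p to miR-106b-5p differed by -1.03 ± 0.18 between the knockouts, and 7 of 8 ratios of miR-92a-3p to other members were lower in Mbnl1KO without overlap (two-sided exact permutation test, p = 0.10 for each, the smallest possible). These too share the count of miR-92a-3p and were added after seeing the data. Of its ratios to all 308 other miRNAs tested 49.7% were lower without overlap, a share that covers only miRNAs past the filter on low counts. The 7 include the ratio to miR-19a-3p (-1.30 ± 0.45), although that member was under the filter here, with a mean normalized count of 6.60.

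The fold changes were also set out by the place of each hairpin in its cluster, as a description. In Mbnl1KO the 2 hairpins nearest the end of miR-17-92, at 634 and 756 bases from its first hairpin, had -0.39 (miR-19b-3p) and -0.64 (miR-92a-3p). Of these, miR-19b-3p did not pass (adjusted p = 0.158 in edgeR) and was at -0.096 with library totals. Both members also have copies on the X chromosome, so their counts cannot be placed at these hairpins alone. miR-19a-3p, at 329 bases and between miR-18a and miR-20a, had -0.86 with a wider interval (-1.71 to -0.02), but it missed the threshold and passed the filter through its WT counts. In miR-106b-25 the first hairpin had the largest difference in Mbnl2KO, and in Mbnl1KO the 3 hairpins were between -0.05 and 0.08.

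**Figure D5:**
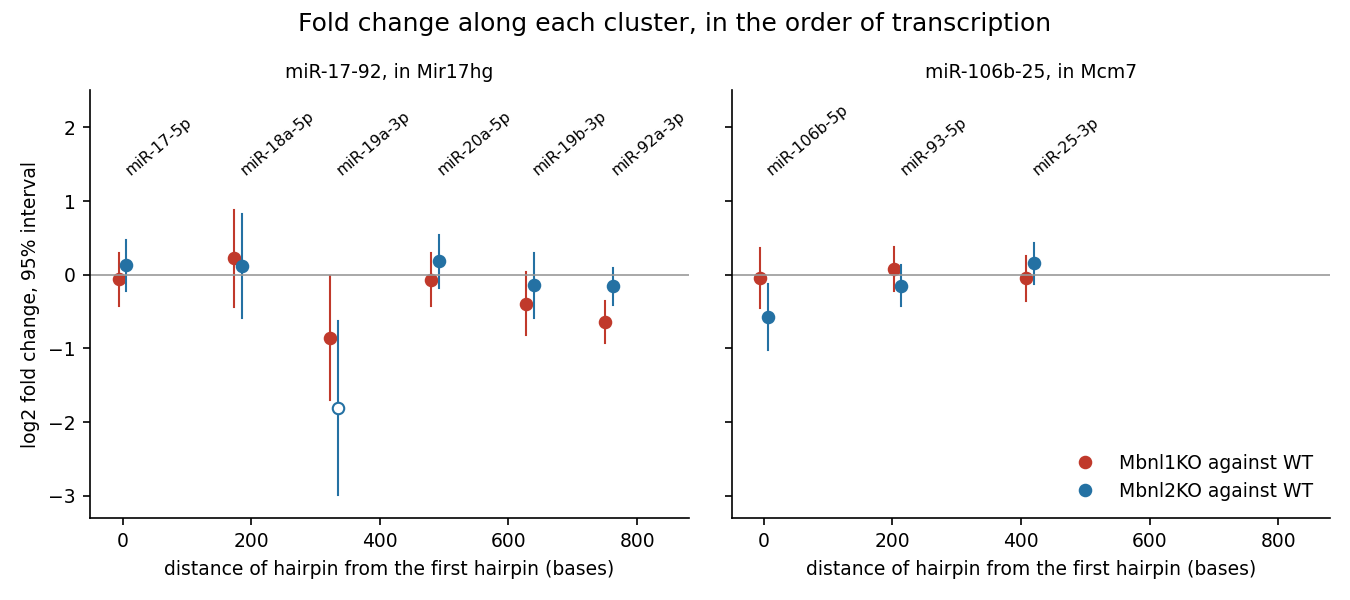
Log2 fold change with 95% interval of each member (vertical axis) by the distance of its hairpin from the first hairpin of the cluster in bases (horizontal axis), for Mbnl1KO (red) and Mbnl2KO (blue) against WT; the open dot is miR-19a-3p from the table without a filter. The red dots at 329, 634 and 756 bases are the lowest, and only that at 756 bases, miR-92a-3p, passed the test. Counts of the members at 634 and 756 bases may include reads from their X-linked copies.

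MBNL proteins are known to bind short pyrimidine-GC-pyrimidine motifs. The words CGCC and CGCU, and likewise the words UGCC and UGCU, were searched on the sense strand of the RefSeq hairpins, with overlaps counted. Of 1005 mouse hairpins, with a median length of 79 bases, 68.1% held at least 1, with a median of 1. miR-106b held 5, miR-25 held 4 and miR-18a held 3, while miR-17, miR-20a and miR-93 held 2 each. The hairpin miR-92a-1 held 1, miR-19b-1 held 1 and miR-19a held none of these letters. These are letter matches, not binding sites.

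The lesser arms of the same hairpins were counted as well. miR-106b-3p was the most frequent, with 19.1% of the counts of its hairpin, followed by miR-18a-3p with 13.3%. The other lesser arms were at 4.02% (miR-17-3p) or under, down to 0.0496% for miR-92a-1-5p, and miR-19a-5p and miR-19b-1-5p were listed at 0. None of those tested was called in any comparison by edgeR, with 0 at an unadjusted p under 0.05 also. In Mbnl2KO, where miR-106b-5p was at -0.57, the opposite arm miR-106b-3p was at 0.02 ± 0.31. The log2 ratio of miR-106b-3p to miR-106b-5p was -1.38, -2.87 and -2.04 in WT and -1.98, -1.56 and -0.97 in Mbnl2KO, which overlap. Between the knockouts this ratio was lower in Mbnl1KO by -0.94 ± 0.32 without overlap. The ratio of miR-93-3p to miR-93-5p was higher in Mbnl2KO than in WT by 0.74 ± 0.24 without overlap, on 15 to 18 counts of miR-93-3p per library against 9 to 12. That of miR-25-5p to miR-25-3p was higher in Mbnl1KO without overlap, by 0.32 ± 0.11 against WT and by 1.28 ± 0.65 against Mbnl2KO, on 15 to 22 counts of miR-25-5p per library against 11 in each WT library and 2 to 15 in Mbnl2KO. The other tested arm ratios overlapped, and none of the 4 ratios in any comparison could go below an exact permutation p of 0.10. With Benjamini-Hochberg adjustment over these 4, the separated ratios had a permutation p of 0.4 against WT and 0.2 between the knockouts. How many arm ratios of all miRNAs were without overlap is not given here.

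Among the other miRNAs, the 3 with a pattern most like each cluster were named by the root mean square difference of centred log2 levels over the 9 libraries, out of 261 candidates. For miR-17-92 they were miR-151-5p (0.060), miR-30a-3p (0.088) and miR-664-3p (0.095), where the median candidate was at 0.40. For miR-106b-25 they were miR-320-3p (0.082), miR-26b-5p (0.11) and miR-103-3p (0.12), with a median of 0.36. The summed level of miR-17-92 is mostly that of miR-92a-3p, so the first 3 resemble miR-92a-3p.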

How the data were processed

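Total RNA of mouse quadriceps was made into small RNA libraries with the NEXTflex kit, 1 library for each of 9 samples in 3 groups of 3 (WT, Mbnl1KO, Mbnl2KO). The authors deposited raw read counts per mature miRNA. For these libraries their methods clip adapters, collapse identical reads, map with Megablast to mouse miRBase precursors in sense and without mismatch, and sum reads over each annotated arm with a small margin; that exactly these steps made the deposited counts is not stated in the table. No unique molecular identifiers are mentioned, so counting error is that of reads. A read of miR-92a-3p or miR-19b-3p matches precursors at 2 loci, and how such reads were counted is not given in the sources used here. The genome was not used for mapping.

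From the counts, each pair of groups was fitted with edgeR 4.0.16 (robust quasi-likelihood, TMM, R 4.3.3) on miRNAs with a mean DESeq2-normalized count above 10, with Benjamini-Hochberg adjustment over all tested miRNAs and a threshold of 0.05. Printed levels are counts per 1000000 (CPM) of TMM-scaled totals over the 9 libraries. Within-library log2 ratios (pseudocount 0.5) were tested with two-sided exact permutation. DESeq2 1.42.0, other scalings and filters, all libraries in 1 fit, a replicate block and left-out libraries were tried. The scripts were tested on simulated data. Libraries of a group were compared pairwise, and no pair agreed within sampling noise. Named miRNAs are the 9 members, the lesser arms, the paralogous cluster, seed mates, 3 miRNAs most like each cluster, and cell type markers. Members and lists were chosen with earlier results of these data known. Hairpin positions are from GENCODE on GRCm39. Depths of 4761271 to 6277018 counts leave miR-19a-3p and miR-18a-5p at 3 to 43 counts per library.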

Additional observations from a re-analysis of the deposited data

Results flagged for a closer look

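The difference between the knockouts in miR-92a-3p, -0.46 on the log2 scale for Mbnl1KO against Mbnl2KO, is listed because the comparison of the 2 knockouts itself passed the threshold (adjusted p = 0.0064 in edgeR), where by the labels the groups also differ in strain.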

How the results depend on the processing

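Of the alternative values computed, 850 kept their direction and their side of the threshold or moved little, 48 changed sign, 6 counts moved, 5 gained and 2 lost the threshold. Every change of sign was of a value that was not called, and the cause was not tested. With library totals in place of TMM the members called went from 1 to 0 in Mbnl1KO against WT and from 1 to 2 between the knockouts, where they were miR-106b-5p (0.82) and miR-93-5p (0.56) instead of miR-92a-3p (-0.17). In the same setting Mbnl1KO against WT turned to 0.26 for miR-17-5p, 0.23 for miR-20a-5p, 0.25 for miR-106b-5p and 0.26 for miR-25-3p, and Mbnl1KO against Mbnl2KO to 0.13 for miR-17-5p, 0.045 for miR-19b-3p, 0.075 for miR-20a-5p and 0.11 for miR-25-3p. With totals without miR-1a-3p, miR-17-5p (0.0074), miR-106b-5p (0.016) and miR-25-3p (0.024) turned positive in Mbnl1KO against WT, and miR-106b-5p was the second of 2 members called between the knockouts, as with a filter of 100. The shares of all miRNAs called in these settings are not given here. With library totals the median of all miRNAs between the knockouts was at 0.35. These counts of members called are therefore not read as results about the members. 

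Leaving out 1 library at a time, the members called ranged from 0 to 1 in Mbnl2KO against WT (miR-19a-3p, without Mbnl2KO replicate 3, where it passed the filter only through its WT counts) and from 1 to 2 between the knockouts (miR-106b-5p, without Mbnl2KO replicate 2). Fold changes of Mbnl1KO against WT ranged from -0.21 to 0.046 for miR-17-5p, -0.18 to 0.11 for miR-20a-5p, -0.22 to 0.10 for miR-106b-5p, -0.069 to 0.20 for miR-93-5p and -0.13 to 0.018 for miR-25-3p. Those of Mbnl2KO against WT ranged from -0.017 to 0.24 for miR-17-5p, -0.072 to 0.43 for miR-18a-5p and -0.31 to 0.043 for miR-19b-3p, and miR-18a-5p between the knockouts from -0.018 to 0.25. In Mbnl1KO against WT the summed miR-106b-25 level ranged from -0.070 to 0.097, and ratios to the rest of the cluster from -0.21 to 0.12 for miR-106b-5p, -0.011 to 0.25 for miR-93-5p and -0.24 to 0.047 for miR-25-3p. The ratio of miR-92a-3p to miR-19a-3p, added after seeing the data like all ratios of miR-92a-3p to single members, ranged from -0.050 to 0.45, that of miR-106b-3p to miR-106b-5p from -0.73 to 0.018 and that of miR-93-3p to miR-93-5p from -0.73 to 0.13. In Mbnl2KO against WT the ratio of the summed clusters ranged from -0.20 to 0.027, that of miR-19b-3p to the rest from -0.23 to 0.20, that of miR-92a-3p to miR-19b-3p from -0.24 to 0.22 and to miR-93-5p from -0.19 to 0.15, and that of miR-17-3p to miR-17-5p from -0.49 to 0.71.

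The labels number the libraries 1 to 3 in each group, but same-numbered libraries did not deviate together (correlations across miRNAs from -0.15 to 0.14, and from -0.16 to 0.14 for the others). This check cannot exclude that same-numbered libraries shared a litter or a preparation. With the replicate number as a block, miR-92a-3p was at -0.63 in Mbnl1KO against WT and -0.46 between the knockouts, and the members called stayed at 1, 0 and 1.

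Depth limits miR-19a-3p and miR-18a-5p most. Library scaling cannot be settled from these counts alone, since miR-1a-3p takes most of them, and 3 libraries a group bound what the exact tests can reach.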
